A study of Mus musculus with 9 samples.

Results

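The humanlincRNA probes are a family of array oligonucleotides named for human long intergenic noncoding RNAs and placed on a mouse array. Members were taken by name alone, as the non-control features whose probe name begins with humanlincRNA. There were 1092 such probes among 60823 non-control probes, each printed as 1 spot, and 59731 other non-control probes served as the comparison. Labelled RNA from mouse aorta was hybridised to 9 one-colour arrays, and the value of a spot is its processed intensity in arbitrary units. All mice were male C57BL/6J, 3 per group with 1 array per mouse. The vehicle group has no diet named in the labels. The DIO group (diet-induced obesity) was fed a high-fat diet for 4 months without the drug. The DIO+sitagliptin group was fed a high-fat diet, for which no length is given in its own label, and received sitagliptin by mouth at 3 mg per kg per day. Sitagliptin inhibits dipeptidyl peptidase 4, the enzyme that inactivates incretin hormones. By the series title, the study asked how the drug changes long noncoding and messenger RNA in the aorta of obese mice.

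Long intergenic noncoding RNAs are transcripts without a recognised open reading frame, made from DNA between protein-coding genes. Most are present at low levels and in few tissues, and their sequences change faster in evolution than those of coding genes. A mouse transcript is therefore often matched to a human one by its place next to the same neighbouring genes rather than by sequence. The sources used here do not say how these probes were matched to mouse, whether they carry mouse or human sequence, or which mouse transcript each was meant to read. Each name holds a locus number and a + or - sign. No source states what the sign stands for, and it is used here only as part of the name. None of the 1092 probes is paired with a transcript accession in the files (0 of 1092), so no gene, position or sequence is given for any of them.

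The arrays differed in overall brightness in ways the groups do not explain. Vehicle 3 and DIO+sitagliptin 3 were scanned on 20 November 2020 and the other 7 arrays on 12 November 2020. On vehicle 3 and DIO+sitagliptin 3 the median humanlincRNA spot read 3.29 and 5.86 units, against 8.56 to 21.9 on the other 7. Control spots for the 2 ends of the mouse Gapdh transcript also varied in 3' minus 5' log2 intensity. It was -1.49, -0.02 and -2.47 on vehicle 1 to 3 and -1.61, 0.43 and 0.15 on DIO 1 to 3. On DIO+sitagliptin 1 to 3 it was -1.19, 0.49 and -1.73. The arrays numbered 1 thus lay below those numbered 2 in each group, and the 2 arrays of 20 November were the lowest. The part of this measure in the results was not tested. The vehicle and DIO+sitagliptin groups thus have 1 array each of 20 November and the DIO group has none. The labelled tissue could not be checked against cell type markers, since 0 of 33 marker genes had a named probe. The value of a bulk tissue sample cannot tell fewer cells of a type from less RNA per cell.

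The humanlincRNA probes were detected less often than the rest of the array on every array. The scanner software marks a spot as well above background when its signal clears the local background by a set margin. The share of humanlincRNA spots so marked was 39.0%, 63.2% and 39.7% on vehicle 1 to 3, 68.0%, 47.4% and 59.9% on DIO 1 to 3, and 65.9%, 58.3% and 49.0% on DIO+sitagliptin 1 to 3. The group means were 47.3% ± 13.8, 58.5% ± 10.4 and 57.8% ± 8.49 (SD, n = 3), and the arrays of all 3 groups overlapped. All other non-control spots were marked in 68.5% ± 9.05, 75.0% ± 7.94 and 73.5% ± 6.62 (SD, n = 3) in the same order of groups. On each array the humanlincRNA share lay below that of the other probes, by 14.1 to 24.7 percentage points (median 15.7, 9 of 9 arrays). It lay closer to the share of the 639 mouselincRNA probes, a sister family named in the same pattern, which was higher by 0.986 to 4.96 points on 9 of 9 arrays.

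The detection flag was also set for many NEGATIVE probes. The array carries 15 non-control probes of that name, in 45 spots, and 22.2% to 71.1% of those spots (median 53.3%) were also marked as well above background. The humanlincRNA share in each group therefore includes signal of the size that NEGATIVE probes gave. The median humanlincRNA spot read 8.56, 19.0 and 3.29 units in vehicle 1 to 3, 17.0, 11.6 and 15.4 in DIO 1 to 3, and 21.9, 17.9 and 5.86 in DIO+sitagliptin 1 to 3. The median NEGATIVE probe on those arrays read 8.30, 18.8 and 1.32 units in vehicle, 19.2, 11.5 and 14.1 on DIO arrays, and 25.1, 14.7 and 2.12 in DIO+sitagliptin. The 2 medians were close on the 7 arrays of 12 November, and on the other 2 arrays the humanlincRNA median was the higher. Set against the median of all other non-control spots, the median humanlincRNA spot was 0.251 to 0.602 times as bright (below 1 on 9 of 9 arrays). Against the mouselincRNA probes the same ratio was 0.853 to 0.932.

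A stricter limit, the brightest NEGATIVE probe of each array (25.1 to 48.6 units), left 14.0% to 29.0% of the humanlincRNA probes above it, against 30.5% to 46.2% of the other probes and 16.0% to 31.1% of the mouselincRNA probes. In numbers, 210, 305 and 153 members passed it on vehicle 1 to 3, 314, 317 and 293 on DIO 1 to 3, and 234, 293 and 225 on DIO+sitagliptin 1 to 3. Only 117 members (10.7%) passed it on all 9 arrays, compared with 21.9% of the other probes and 12.1% of the mouselincRNA probes. A further 678 members (62.1%) passed it on none, against 42.7% of the other probes. By the sign in the name, 62 of 542 + probes (11.4%) and 55 of 550 - probes (10.0%) passed on all 9 arrays, and 323 + probes and 355 - probes passed on none.

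Signal in the family was held by few probes. The 10 brightest members of an array gave 45.5% to 70.6% (median 59.0%) of the summed humanlincRNA intensity of that array, and the brightest 1 gave 9.57% to 13.1%. The brightest member was humanlincRNA0284+_P1V4 on vehicle 1, DIO 1, DIO 3 and DIO+sitagliptin 1, humanlincRNA2345-_P1V4 on vehicle 2, DIO 2 and DIO+sitagliptin 2, and humanlincRNA0955+_P1V4 on vehicle 3 and DIO+sitagliptin 3. The probe humanlincRNA0955+_P1V4 is named here for this fact, after its values were seen. The 117 members above the brightest NEGATIVE probe on all arrays had a median intensity over the 9 arrays of 49.3 to 18976 units, and 34 of them exceeded 1000 units. No member spot was saturated (0 on each array).

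The 10 members with the highest mean normalised intensity sat above the 95th percentile of all non-control probes on every array, the lowest placement being 95.7. The first of them, humanlincRNA2397-_P1V4, read 13271, 57599 and 8936 units in vehicle 1 to 3, 18420, 24630 and 13376 in DIO 1 to 3, and 8783, 68213 and 10260 in DIO+sitagliptin 1 to 3. The second, humanlincRNA0284+_P1V4, read 16871, 44921 and 4811 in vehicle, 23145, 19988 and 18976 on DIO arrays, and 12977, 53645 and 6142 in DIO+sitagliptin. In both probes vehicle 2 and DIO+sitagliptin 2 were the brightest arrays in raw units, and the raw ranges of the 3 groups overlapped. After normalisation the DIO mean was the highest in both. For humanlincRNA2397-_P1V4 the log2 means were 14.12 (SD 1.00) in vehicle, 14.58 (SD 0.09) in DIO and 13.86 (SD 1.36) in DIO+sitagliptin. For humanlincRNA0284+_P1V4 they were 13.84 (SD 1.52), 14.76 (SD 0.34) and 13.67 (SD 1.76). DIO minus vehicle was 0.46 (SE 0.73) and 0.92 (SE 0.94), and DIO+sitagliptin minus DIO was -0.73 (SE 0.73) and -1.09 (SE 0.94). In raw units vehicle 2 and DIO+sitagliptin 2 were also the brightest arrays for humanlincRNA1145+_P1V4. It read 8569, 44327 and 6616 units in vehicle, 11214, 17735 and 10403 on DIO arrays, and 9250, 47059 and 8440 in DIO+sitagliptin. For humanlincRNA2330+_P1V4 the readings were 6403, 41328 and 2139 in vehicle, 10279, 14502 and 15506 on DIO arrays, and 7429, 67167 and 3649 in DIO+sitagliptin. This probe spanned 31.4-fold between its lowest array, vehicle 3, and its highest, DIO+sitagliptin 2. The readings of humanlincRNA2159-_P1V4 were 3825, 32979 and 2932 in vehicle, 5132, 9983 and 6047 on DIO arrays, and 3936, 38390 and 3982 in DIO+sitagliptin, again highest on the arrays numbered 2.

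A different layout appeared in 3 other bright members, which were high on the arrays numbered 2 and 3 of the vehicle and DIO+sitagliptin groups. The first, humanlincRNA2397+_P1V4, read 1743, 28025 and 15608 units in vehicle, 2798, 9856 and 3835 on DIO arrays, and 1820, 34791 and 21800 in DIO+sitagliptin. Readings of humanlincRNA2242+_P1V4 were 1538, 26183 and 15604 in vehicle, 2779, 6445 and 2734 on DIO arrays, and 1043, 34091 and 17326 in DIO+sitagliptin. For humanlincRNA2199+_P1V4 they were 1943, 15131 and 14386 in vehicle, 2975, 4887 and 2851 on DIO arrays, and 1730, 16057 and 20904 in DIO+sitagliptin. In each of the 3 the DIO arrays fell inside the range of the other groups, so the groups overlapped. After normalisation DIO minus vehicle was -0.39, -0.63 and -0.57 log2 units (SE 0.91, 0.99 and 0.73). Within vehicle and DIO+sitagliptin, the brightest spot of the other non-control probes was also higher on the arrays numbered 2 and 3. It read 48389, 157242 and 110789 units in vehicle, 70750, 112277 and 78187 on DIO arrays, and 48366, 152041 and 120004 in DIO+sitagliptin. The part of array brightness in these raw layouts was not tested. The remaining 2 bright members were more even in raw units. The first, humanlincRNA1546+_P1V4, read 6087, 6932 and 6273 in vehicle, 5990, 5304 and 5857 on DIO arrays, and 5364, 4864 and 5725 in DIO+sitagliptin, a span of 1.43-fold. Values of 11152, 20336 and 10260 in vehicle, 11567, 14015 and 12841 on DIO arrays, and 6281, 16895 and 16496 in DIO+sitagliptin belonged to humanlincRNA0324-_P1V4. After normalisation the SD over the 9 arrays was 0.70 log2 units for humanlincRNA1546+_P1V4 and 0.53 for humanlincRNA0324-_P1V4, so the order of the 2 turned.

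For the 117 members above the brightest NEGATIVE probe on all 9 arrays, the SD between arrays of the same group, pooled over the 3 groups, had a median of 0.82 log2 units after quantile normalisation. It was 0.70 for the 13099 other probes that passed the same limit. This spread is between mice and arrays. It also holds the scan day in the vehicle and DIO+sitagliptin groups, the error of single member spots, and any spread that normalisation added. Within an array, probes printed as 10 spots had a median spot-to-spot SD of 0.0848 to 0.127 log2 units per array, among those above the brightest NEGATIVE probe. That SD was taken before normalisation from 17 to 24 probes per array, none of them a humanlincRNA probe. The 720 members that passed the detection filter, dim ones included, had a median SD over all 9 arrays of 0.69 log2 units, against 0.61 for all 49360 probes kept. The filter asked that a probe be well above background on at least 3 of the 9 arrays. It kept 65.9% of the humanlincRNA probes, 81.4% of the other probes, 69.6% of the mouselincRNA probes and 10 of the 15 NEGATIVE probes. Of the 720 kept, 310 were above the brightest NEGATIVE probe on no array. The remaining 372 members were left out of the tests. In 53 members kept, exactly 3 arrays passed, and these 3 arrays were a whole group in 0 of the 53. That count does not exclude entry mainly through arrays of a group where a member is high. Among the 53 were humanlincRNA0974-_P1V4, humanlincRNA2194-_P1V4 and humanlincRNA0323+_P1V4, which are ranked by p below.

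In 4 of the 5 members kept with the widest spread, the arrays that stood apart were the 2 scanned on 20 November, while DIO 3, scanned on 12 November, stayed with the rest. The widest, humanlincRNA0538+_P1V4, read 32.6, 269.5 and 5103 units in vehicle, 57.5, 76.3 and 42.0 on DIO arrays, and 41.1, 152.5 and 5071 in DIO+sitagliptin. In humanlincRNA1712-_P1V4 the values were 35.6, 55.3 and 832 in vehicle, 46.8, 30.0 and 28.9 on DIO arrays, and 13.9, 29.4 and 3658 in DIO+sitagliptin. Both were highest on the 2 arrays of 20 November. So was humanlincRNA1828+_P1V4, with 261.5, 5410 and 16717 units in vehicle, 308.1, 1548 and 272.7 on DIO arrays, and 178.8, 2167 and 22794 in DIO+sitagliptin. The reverse was seen in humanlincRNA2410-_P1V4, at 198.6, 1300 and 33.1 in vehicle, 456.0, 645.4 and 310.1 on DIO arrays, and 1183, 3237 and 11.7 in DIO+sitagliptin, where those 2 arrays were the lowest. The arrays numbered 2 stood out in humanlincRNA2345-_P1V4, which read 644, 80684 and 2188 in vehicle, 2184, 28351 and 5575 on DIO arrays, and 1597, 83969 and 2301 in DIO+sitagliptin. That is a span of 130.5-fold, with the DIO range inside the range of each of the other groups.

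Splitting the sum of squares of each probe between group and replicate number, with 3 groups by 3 numbers, gave a median of 16.4% by group and 36.5% by number for the 720 members. The same split over all 49360 probes gave 15.6% and 36.7%. An even spread over the layout would put 25% on each on average. The values here are medians, which can differ from an average, so they are not read against that 25%. For the 117 members above the brightest NEGATIVE probe on all arrays, the medians were 14.4% by group and 51.3% by number, and the number held more than the group in 103 of 117 (88.0%). Over all members kept that count was 538 of 720 (74.7%), and over all probes 74.0%. The split was not computed for the other probes above the brightest NEGATIVE probe on all arrays. The larger share by number is thus not shown to be particular to this family. The 2 highest arrays of a probe were vehicle 3 and DIO+sitagliptin 3 in 22 of the 117 (18.8%), against 25.4% of 13099 other probes that passed the same limit. They were DIO 3 and DIO+sitagliptin 2 in 20 of the 117 (17.1%), against 7.50% of those other probes. This layout was not tested, and the scan day is part of the replicate number for number 3. The Gapdh end difference given above also varied with the replicate number.

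The + and - probes of a locus can be read against each other within an array, where a brightness factor shared by both cancels. How strongly each probe binds its target does not cancel and is unknown, so a ratio between the probes of a locus compares 2 probe signals and not 2 RNA levels. The family covers 557 locus numbers, of which 535 carry a + and a - probe, 7 the + probe alone and 15 the - probe alone. In 274 of 535 loci (51.2%) the same probe was brighter on all 9 arrays, the + probe in 138 and the - probe in 136. The 307 such loci of the mouselincRNA family gave 52.8%. In 100 humanlincRNA loci (18.7%) 1 probe signal was over 4-fold brighter than its partner's on all 9 arrays, the + probe in 54 and the - probe in 46. With dim probes set to the brightest NEGATIVE probe of the array, 38 loci kept a ratio over 4-fold on all 9 arrays, against 25 of 307 mouselincRNA loci (8.14%; 7.10% of the humanlincRNA loci).

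In 63 loci 1 probe was above the brightest NEGATIVE probe on all 9 arrays and its partner on none, the + probe in 37 and the - probe in 26. Both probes passed that limit on all 9 arrays in 6 loci, and neither passed it on any array in 220 (41.1%). The widest ratio under that lower limit belonged to locus humanlincRNA1145, at 141.0-fold or more on every array in favour of +. Next came humanlincRNA0324, at 129.3-fold in favour of -, humanlincRNA0284 at 117.0-fold in favour of +, and humanlincRNA1546 at 110.4-fold in favour of +. The partner of humanlincRNA2330+_P1V4 read only 1.11 to 2.78 units on the 9 arrays, and the partner of humanlincRNA2242+_P1V4 read 1.26 to 3.38. For 8 of the 10 brightest members named above, the partner was under 60 units on every array, its highest value being 59.9.

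The 6 loci with both probes above the limit on all arrays were humanlincRNA1050, humanlincRNA1094, humanlincRNA1396, humanlincRNA1828, humanlincRNA2397 and humanlincRNA2473. At humanlincRNA2397, both probes of which are among the 10 brightest members, the log2 ratio of + to - was -2.93, -1.04 and 0.80 in vehicle 1 to 3, -2.72, -1.32 and -1.80 on DIO arrays, and -2.27, -0.97 and 1.09 in DIO+sitagliptin. The - probe was thus brighter on all 7 arrays of 12 November and the + probe on both arrays of 20 November. The same turn was seen at humanlincRNA1094, with ratios of 0.05, 0.42 and -1.61 in vehicle, 0.34, 0.20 and 0.39 on DIO arrays, and 1.11, 0.93 and -2.58 in DIO+sitagliptin. These 2 loci were named after their values were seen. In all, the brighter probe differed between the scan days in 42 of 535 loci (7.85%), against 7.17% of the mouselincRNA loci. Of these 42, only the 2 loci just named had both probes above the brightest NEGATIVE probe on all 9 arrays. At humanlincRNA1050 the ratio ran from -5.38 on DIO+sitagliptin 3 to 2.74 on DIO 1. By contrast, the + probe of humanlincRNA2473 was brighter by 2.87 to 5.08 log2 units on every array.

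The first comparison asked which RNAs differ between obese and vehicle aorta. None of the 720 members tested passed an adjusted p of 0.05 in DIO minus vehicle (limma, Benjamini-Hochberg over 49360 probes), and none of the other probes did (0% of all). The smallest adjusted p of a member by limma was 0.925. At an unadjusted p under 0.05, limma gave 3 members higher in DIO (0.417%, against 0.436% of all probes) and 1 lower (0.139%, against 0.282%). These 4 (0.556%, against 0.717% of all probes) became 36 of 701 members without vehicle 2 (5.14%, against 4.74%), 23 of 704 without DIO+sitagliptin 3 (3.27%, against 2.55%) and 1 of 709 without vehicle 3 (0.141%, against 0.177%). The members' share moved with that of all probes. Over the members kept, the median log2 difference was 0.28 and 480 of 720 were above 0, while the median over all probes was 0.05 and 53.7% were above 0. Without vehicle 3 the members' median was 0.05 (0.0464, against 0.00287 for all probes), and without both arrays scanned later it was 0.0488. The normalised median of the members kept was 4.21 on vehicle 3 and 4.45 to 4.67 on the other 8 arrays.

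Probe humanlincRNA0540-_P1V4 had the smallest unadjusted p of this comparison. Its intensity was 2.8, 18.2 and 1.8 units in vehicle and 21.9, 24.5 and 26.3 in DIO, so the groups did not overlap. The log2 difference was 1.44 (SE 0.40, 95% interval 0.56 to 2.33, limma adjusted p = 0.925), and on the arrays of 12 November alone it was 1.41. It was above the brightest NEGATIVE probe on 0 of the 6 arrays compared. The 2 probes of locus humanlincRNA0974 followed. In humanlincRNA0974-_P1V4 the values were 3.1, 8.8 and 1.2 in vehicle and 13.9, 12.2 and 10.1 in DIO, with a log2 difference of 1.13 (SE 0.42). In humanlincRNA0974+_P1V4 they were 6.3, 23.6 and 1.7 in vehicle and 22.0, 16.3 and 40.7 in DIO, with a log2 difference of 1.13 (SE 0.45), which became 0.71 without DIO 3. Only the + probe of that locus cleared the brightest NEGATIVE probe, on 1 of the 6 arrays. The fourth, humanlincRNA0388-_P1V4, had 3.3, 18.7 and 1.2 in vehicle and 19.5, 11.0 and 16.1 in DIO, with a log2 difference of 1.08 (SE 0.49), which became 0.59 without vehicle 3. This probe was above the brightest NEGATIVE probe on 0 of the 6 arrays.

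On the lower side the 4 members with the smallest unadjusted p were also dim, each above the brightest NEGATIVE probe on 0 of the 6 arrays. The first, humanlincRNA2149-_P1V4, read 13.5, 21.9 and 8.2 in vehicle and 14.9, 7.1 and 10.8 on DIO arrays, and its log2 difference after normalisation was -0.87 (SE 0.35, 95% interval -1.65 to -0.10, limma adjusted p = 0.925). The raw units of the 2 groups overlapped and the normalised values did not. The other 3 had log2 differences of -1.11 (SE 0.51, humanlincRNA1680-_P1V4), -0.88 (SE 0.41, humanlincRNA1563+_P1V4, and -0.55 without DIO 2) and -1.19 (SE 0.56, humanlincRNA2194-_P1V4).

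After normalisation the 3 DIO arrays lay wholly above the 3 vehicle arrays in 32 members (4.44%, against 4.16% of all probes) and wholly below in 20 (2.78%, against 3.26%). Of these, 4 (0.556%, against 0.656% of all probes) and 6 (0.833%, against 0.752%) were above the brightest NEGATIVE probe on all 6 arrays, shares near those of the whole array. The 4 that lay higher were humanlincRNA0065-_P1V4, humanlincRNA1773+_P1V4, humanlincRNA2113+_P1V4 and humanlincRNA2314-_P1V4, named after their values were seen. Of these, humanlincRNA1773+_P1V4 read 617, 1002 and 97.3 units in vehicle and 1315, 722 and 844 in DIO. Its normalised log2 difference was 1.52 (SE 0.92, limma adjusted p = 0.925), and on the arrays of 12 November alone it was 0.63. Among the 6 that lay lower, humanlincRNA1596+_P1V4 read 83.7, 123.1 and 1748 in vehicle and 77.6, 63.1 and 33.5 in DIO. Its log2 difference was -2.19 (SE 1.41) with all arrays and -0.80 on the arrays of 12 November. In both probes vehicle 3 stood far from vehicle 1 and vehicle 2.

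The second comparison asked what the drug changed in obese mice. In DIO+sitagliptin minus DIO, 0 of 720 members passed an adjusted p of 0.05 by limma (0% of all probes), and the smallest adjusted p rounded to 1.00. At an unadjusted p under 0.05, limma gave 3 members higher with the drug (0.417%, against 0.148% of all probes) and 3 lower (0.417%, against 0.0831%). These 6 (0.833%, against 0.231%) became 13 of 710 members without DIO+sitagliptin 2 (1.83%, against 0.887%), 2 of 677 without DIO 1 (0.295%, against 0.169%) and 28 of 695 without both arrays scanned later (4.03%, against 2.24%). When only probes detected on all 9 arrays were tested, the count was 0 of 300 members (against 0.234% of all such probes). The members' median log2 difference was -0.07, beside -0.05 over all probes, and 320 members were above 0 and 400 below. Without DIO+sitagliptin 3 the members' median turned to 0.05.

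The smallest unadjusted p on the higher side was again that of humanlincRNA2149-_P1V4, at 14.9, 7.1 and 10.8 units on DIO arrays and 21.3, 25.3 and 13.8 in DIO+sitagliptin. Its log2 difference was 0.97 (SE 0.35, 95% interval 0.19 to 1.74, limma adjusted p = 1.00). This comparison and the first share the DIO arrays, so the probe's lower value in DIO enters both. Next came humanlincRNA0642+_P1V4, at 8.5, 8.0 and 6.8 on DIO arrays and 22.9, 18.1 and 7.0 in DIO+sitagliptin, with a log2 difference of 1.06 (SE 0.39). The third, humanlincRNA0600+_P1V4, changed from 1.21 (SE 0.53) to 0.65 without DIO+sitagliptin 3, and humanlincRNA0750-_P1V4 from 0.86 (SE 0.44) to 0.50 without DIO 2. All 4 were above the brightest NEGATIVE probe on 0 of the 6 arrays.

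Lower with the drug by the same ranking was humanlincRNA0561-_P1V4, at 44.1, 25.1 and 32.0 units on DIO arrays and 23.9, 33.1 and 3.5 in DIO+sitagliptin. Its log2 difference was -1.02 (SE 0.42, limma adjusted p = 1.00), and -0.64 without DIO+sitagliptin 3. The probe humanlincRNA0324+_P1V4, the dim partner of the bright humanlincRNA0324-_P1V4, read 43.2, 28.1 and 38.1 on DIO arrays and 25.6, 37.8 and 4.1 in DIO+sitagliptin. It differed by -1.01 (SE 0.44), and by -0.63 without DIO+sitagliptin 3. For humanlincRNA0323+_P1V4 the values were 16.3, 9.0 and 13.6 on DIO arrays and 11.0, 9.4 and 1.5 in DIO+sitagliptin, a difference of -0.83 (SE 0.36). The fourth, humanlincRNA1436+_P1V4, differed by -0.98 (SE 0.45), and by -0.65 without DIO+sitagliptin 3. In each of the 4, DIO+sitagliptin 3 held the lowest raw value of the 6 arrays. In the order given, they were above the brightest NEGATIVE probe on 3, 4, 0 and 1 of the 6 arrays.

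The DIO+sitagliptin arrays lay wholly above the DIO arrays in 14 members (1.94%, against 1.92% of all probes) and wholly below in 15 (2.08%, against 1.40%). Among these, 0 (against 0.263% of all probes) and 3 (0.417%, against 0.425%) were above the brightest NEGATIVE probe on all 6 arrays. The 3, named after their values were seen, were humanlincRNA0052+_P1V4, humanlincRNA0324-_P1V4 and humanlincRNA1918+_P1V4. The brightest, humanlincRNA0324-_P1V4, differed by -0.73 after normalisation (SE 0.51, 95% interval -1.86 to 0.40, limma adjusted p = 1.00). Its raw readings, given above, overlapped between the 2 groups.

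The third comparison set treated obese mice against vehicle mice. In DIO+sitagliptin minus vehicle, 0 of 720 members passed an adjusted p of 0.05 by limma (0% of all probes), with a smallest adjusted p of 1.00. At an unadjusted p under 0.05, limma gave 11 members higher (1.53%, against 0.798% of all probes) and 3 lower (0.417%, against 0.646%). These 14 (1.94%, against 1.44%) became 94 of 704 members without DIO+sitagliptin 3 (13.4%, against 10.4%) and 39 of 701 without vehicle 2 (5.56%, against 5.10%). With the replicate number as a block the count was 15 with all 9 arrays (2.08%, against 2.13%) and 63 with only the 6 arrays compared (8.75%, against 7.66%), and still 0 passed the adjusted limit. The median log2 difference of the members was 0.18, beside 0.004 (0.00414) over all probes, and 454 of 720 were above 0. Without vehicle 3 the members' median was -0.03.

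Both probes of humanlincRNA0974 were among the 4 higher members with the smallest unadjusted p, as in the first comparison, which uses the same vehicle arrays. The - probe read 22.0, 18.2 and 4.4 units in DIO+sitagliptin against 3.1, 8.8 and 1.2 in vehicle, a log2 difference of 1.39 for humanlincRNA0974-_P1V4 (SE 0.42, 95% interval 0.46 to 2.32, limma adjusted p = 1.00). The + probe read 49.0, 30.7 and 14.8 against 6.3, 23.6 and 1.7, a log2 difference of 1.43 for humanlincRNA0974+_P1V4 (SE 0.45). Between these 2 in that order came humanlincRNA1492-_P1V4, whose locus has no + probe on the array, at 50.8, 34.0 and 25.5 against 8.9, 26.5 and 7.1, a difference of 1.09 (SE 0.34). The fourth was humanlincRNA1998+_P1V4, at 35.3, 21.0 and 17.2 against 3.2, 20.8 and 3.3, with a difference of 1.16 (SE 0.42). In each of these 4 probes the raw units of the 2 groups overlapped and the normalised values did not. The 4 were picked by their p in this same comparison, so the separation is no separate support. On the arrays of 12 November alone the 4 differences were 1.19, 1.24, 1.07 and 1.03 in the order printed here. Of the 6 arrays compared, humanlincRNA0974+_P1V4 and humanlincRNA1492-_P1V4 cleared the brightest NEGATIVE probe on 1 each and the other 2 on 0.

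Lower than vehicle by the smallest unadjusted p was humanlincRNA0323+_P1V4, at 11.0, 9.4 and 1.5 units against 11.2, 16.6 and 3.2, a log2 difference of -0.95 (SE 0.36, limma adjusted p = 1.00). The values of humanlincRNA0561-_P1V4 differed by -0.999 (SE 0.42), and by -0.62 without DIO+sitagliptin 3. Next was humanlincRNA0512+_P1V4, which differed by -1.43 (SE 0.62), and by -0.82 without vehicle 3. The last, humanlincRNA0059+_P1V4, read 30.9, 36.8 and 17.6 against 56.2, 61.7 and 26.6, a difference of -0.92 (SE 0.42). In the order given, these 4 probes were above the brightest NEGATIVE probe on 0, 1, 1 and 2 of the 6 arrays compared. The DIO+sitagliptin arrays lay wholly above the vehicle arrays in 25 members (3.47%, against 2.34% of all probes) and wholly below in 6 (0.833%, against 1.71%). Above the brightest NEGATIVE probe on all 6 arrays were 0 and 0 of these, against 0.152% and 0.383% of all probes.

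An F-test over the 3 groups called 0 members (limma, 0% of all probes), and 7 of 720 had an unadjusted p under 0.05 (0.972%, against 0.427% of all probes). Leaving out DIO+sitagliptin 3 raised that count to 31 (4.40%, against 3.59%) and leaving out vehicle 2 to 20 (2.85%, against 2.61%). It fell to 0 when only probes detected on all 9 arrays were tested (against 0.353% of all such probes). Without normalisation it was also 0 (against 0.0588%). Across the members kept, the median half-width of the unadjusted 95% interval of a difference was 1.23 log2 units. With 3 arrays a group, a change of about 2-fold in a member was thus mostly not detectable even before adjustment. The adjusted limit asked for more: humanlincRNA0540-_P1V4 differed by 1.44 in DIO minus vehicle at a limma adjusted p of 0.925. Differences over 2-fold were measured in 80 members for DIO minus vehicle (11.1%, against 8.56% of all probes), in 27 for DIO+sitagliptin minus DIO (3.75%, against 3.05%) and in 33 for DIO+sitagliptin minus vehicle (4.58%, against 4.06%).

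The + to - ratio within an array was also compared between groups, over 852 loci of which 535 are humanlincRNA loci. No locus passed an adjusted p of 0.05 in any of the 3 comparisons (limma, 0% of loci), and the smallest adjusted p values were 0.980, 0.997 and 0.997. In DIO minus vehicle 5 loci had an unadjusted p under 0.05 (0.935%, against 0.704% of all loci tested): humanlincRNA1827, humanlincRNA2380, humanlincRNA0539, humanlincRNA0388 and humanlincRNA1692. In DIO+sitagliptin minus DIO there were 4 (0.748%, against 0.822%): humanlincRNA1576, humanlincRNA1166, humanlincRNA1605 and humanlincRNA1436. In DIO+sitagliptin minus vehicle there were 6 (1.12%, against 1.53%), the smallest p being that of humanlincRNA0512, whose ratio differed by -2.35 log2 units (SE 0.79, limma adjusted p = 0.997). None of these loci had both probes above the brightest NEGATIVE probe on all 9 arrays. The median half-width of the 95% interval of a ratio's difference was 1.64 log2 units.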

How the data were processed

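Intensities and flags were produced by the authors with Agilent Feature Extraction 11.0.1.1, which corrects each spot for background, per the file headers. The deposited files hold one-colour Cy3 processed intensity per spot on a linear scale, a background-subtracted signal in intensity units, and 0 or 1 flags for detection. The headers name the mm9 mouse build. The record describes sequencing, and the files hold array values. The members, lists and alternatives were chosen with earlier results of these data known.

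Replicate spots of a probe were averaged as log2(intensity + 1), and 60823 non-control probes were quantile normalised over the 9 arrays. A probe was kept if at least 0.5 of its spots were well above background on 3 or more arrays. One limma 3.58.1 fit in R 4.3.3 used all 9 arrays, with an intensity trend and Benjamini-Hochberg adjustment over the 49360 probes kept. The code was run on simulated data with large planted differences in independent noise. That run had no pairing or scan day and does not show how the fit performs on these arrays. Ratios of + to - probes used raw log2(intensity + 1). Per the series design each array is a separate mouse. Named are the 10 brightest members, the 5 with the widest spread, and for each comparison the 4 higher and 4 lower members with the smallest unadjusted p. The number of arrays limits the precision.

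The labels number the replicates 1 to 3 in each group without saying what the number marks. Deviations from the group means correlated between same-numbered arrays by 0.67, 0.65 and 0.76 for vehicle and DIO+sitagliptin. They correlated by 0.34, 0.11 and -0.34 for vehicle and DIO, and by 0.17, -0.06 and -0.31 for DIO and DIO+sitagliptin. The main fit had no block for the replicate number in any comparison. Its standard errors, intervals and p-values for DIO+sitagliptin minus vehicle therefore leave this pairing out. Number 3 of vehicle and DIO+sitagliptin is also the pair scanned on 20 November. Fits with a replicate block, without single arrays, with the scan date, and with other scaling, filters and pseudocounts were alternatives. The + to - ratio fit, the lower limit at the brightest NEGATIVE probe for loci, and a block fit on 6 arrays were chosen after seeing the data.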

Additional observations from a re-analysis of the deposited data

How the results depend on the processing

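No humanlincRNA probe passed an adjusted p of 0.05 in any comparison or in the F-test (limma) under any alternative: 20 for DIO minus vehicle, 20 for DIO+sitagliptin minus DIO and 21 for DIO+sitagliptin minus vehicle (0 to 0 when each array was left out). The number at an unadjusted p under 0.05 was less steady, for the members and for all probes. From 4, 6 and 14 in the 3 comparisons it ran from 0 to 36, from 0 to 28 and from 3 to 94. As a share of members tested that was up to 5.14%, 4.03% and 13.4%, beside up to 4.74%, 2.24% and 10.4% of all probes. With the scan date as a term it was 10, 15 and 55 (1.39%, 2.08% and 7.64%, against 0.997%, 1.29% and 6.87% of all probes). With the replicate block it was 14, 9 and 15 (1.94%, 1.25% and 2.08%, against 1.54%, 0.559% and 2.13%). The block on only the 6 arrays of DIO+sitagliptin minus vehicle, whose numbers pair by the correlations, gave 63 (8.75%, against 7.66%), and the same 6 arrays without it 5 (0.694%, against 0.610%). The block changed no call.

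The share of humanlincRNA spots detected per array averaged 54.5%, and 52.8% to 56.4% when each array was left out (other probes 72.3%, and 71.0% to 73.6%). With the positive and significant flag it averaged 81.7% (other probes 90.3%), and above the brightest NEGATIVE probe 23.9% (other probes 40.0%). The members' median log2 difference ran from 0.0464 to 0.62, from -0.16 to 0.07 and from -0.03 to 0.45 over the alternatives. Without normalisation it was 0.62, -0.11 and 0.45 while the median of all probes was 0.26, -0.08 and 0.19. The adjusted p values of the 24 named differences, where an alternative's filter kept the probe, ran from 0.462 to 1.00. The cause of these shifts was not tested. Signal near the NEGATIVE probes and 3 arrays a group limit what could be detected.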
